A study of Mus musculus with 4 samples.

Results

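The genes of the proteasome, the protease that breaks down ubiquitin-tagged proteins in every cell, were followed in spleens of newborn mice whose mothers had been given carbon black nanoparticles (CB-NP) during pregnancy. A gene was taken when its symbol, found through the RefSeq accession of its probe, began with Psma, Psmb, Psmc, Psmd, Psme or Psmg, and 6 pseudogenes were left out. Of 50 such genes in the name table, 49 had a probe among the 20284 genes matched on the array, and Psme2b had none. Well above background on all 4 arrays were 48 of the 49. The exception was Psmb11, a catalytic subunit known from the thymic cortex, which did not rise well above background on any of them. The 48 comprised 5 interferon-inducible genes (Psmb8, Psmb9, Psmb10, Psme1 and Psme2), 31 genes of constitutive subunits, and 12 others, of which 7 encode assembly chaperones. Psmc3ip and Psme3ip1 are no subunits and were included because they share the prefix.

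The mice were outbred ICR mice sampled at an age of 5 days. Their dams had received CB-NP, ultrafine carbon particles, into the nose at 95 microg/kg on each of gestational days 5 and 9, and control dams had received distilled water (1 mL/kg) at the same times. Spleen RNA was pooled by sex and treatment, so that each sex contributed a control pool and a CB-NP pool (4 in all), and the number of animals per pool is not given in the labels. Each pool was hybridised to 1 array, so no difference between pools has a replicate, and the values measure these pools only. The exposure was that of the dams before birth, and the labels give no treatment of the pups themselves.

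On the 4 arrays, between 57.3% and 59.0% of the 59305 spots that were no controls stood well above background, and none was saturated. All 4 lay on 1 slide, where array position and group cannot be told apart. The spleen transcription factors Tlx1 and Nkx2-5 were well above background in every pool. The control pools stood apart from the CB-NP pools in genes of the exocrine pancreas, a neighbour of the spleen: 8 of 12 listed genes were detected on all 4 arrays, Cpb1 and Pnlip on none, and the summed level of all 12, 2 of them detected on 2 arrays, was 23.6 and 17.2 in the male and female control pools against 1.79 and 1.80 in the CB-NP pools. A summed level is the sum of linear signals in units of the 75th percentile of the array, so the brightest probes weigh most. Cela1 was the brightest pancreas gene in both CB-NP pools, and it differed by 0.21 in males and -0.59 in females. Eosinophil granule genes were also higher in the control pool of each sex. Their summed levels over 6 of 6 genes were 31.8 and 62.3 in the male and female control pools and 8.89 and 17.2 in the CB-NP pools. The part of the pancreas and eosinophil genes in the proteasome values was not tested.

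The proteasome is built of a barrel-shaped core particle (20S) capped by a regulatory particle (19S). The core stacks rings of alpha subunits (Psma genes) and beta subunits (Psmb genes), and Psmb5, Psmb6 and Psmb7 carry the protease sites. The cap consists of a base with ATPases (Psmc genes) that unfold substrates and a lid of Psmd subunits that removes ubiquitin. In immune cells and after interferon-gamma, Psmb8, Psmb9 and Psmb10 take the places of Psmb5, Psmb6 and Psmb7 in newly built cores, and Psme1 and Psme2 form the activator PA28. This immunoproteasome produces peptides suited to presentation on MHC class I molecules, and the spleen, rich in lymphocytes and antigen-presenting cells, is among the organs where it is abundant. The genes Psmb9, Tap1, Psmb8 and Tap2 follow each other on mouse chromosome 17, within the MHC, beside the peptide transporter genes. Psme1 and Psme2 lie on chromosome 14, separated by Emc9, and Psmb10 is on chromosome 8.

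The promoters of the 5 inducible genes and of the constitutive catalytic subunits they are set against are shown, since these 2 groups of genes differed in opposite directions below. RefSeq entries (build GRCm38.p6) covering 250 bases before to 50 bases after the start site existed for 41 of the 49 genes, and Psmb7 is named only. Capitals mark matches on either strand to the core of the interferon-stimulated response element (GAAANNGAA), the core of the gamma-activated site (TTCNNNGAA), the core of the antioxidant response element (TGACNNNGC) and the CCAAT box (CCAAT). Each line gives the gene, its chromosome region and strand, and the sequence from 5′ to 3′ on the strand of the gene. Each printed promoter held at most 1 match, so no matches overlap.
Psmb8 (chr17:34197945-34198244, plus strand): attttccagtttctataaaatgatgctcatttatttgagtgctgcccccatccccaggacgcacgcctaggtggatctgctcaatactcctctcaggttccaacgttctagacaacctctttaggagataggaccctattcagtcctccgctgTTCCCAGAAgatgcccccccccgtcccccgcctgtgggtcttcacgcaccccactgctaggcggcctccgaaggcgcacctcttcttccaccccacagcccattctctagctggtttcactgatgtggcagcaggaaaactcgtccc
Psmb9 (chr17:34187281-34187580, minus strand): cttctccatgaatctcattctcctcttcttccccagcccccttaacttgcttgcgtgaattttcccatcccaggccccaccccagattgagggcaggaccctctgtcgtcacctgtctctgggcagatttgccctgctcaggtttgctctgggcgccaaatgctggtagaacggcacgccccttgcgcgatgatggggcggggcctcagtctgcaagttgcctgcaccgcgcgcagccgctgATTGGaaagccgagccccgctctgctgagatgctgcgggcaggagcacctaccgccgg
Psmb10 (chr8:105938343-105938642, minus strand): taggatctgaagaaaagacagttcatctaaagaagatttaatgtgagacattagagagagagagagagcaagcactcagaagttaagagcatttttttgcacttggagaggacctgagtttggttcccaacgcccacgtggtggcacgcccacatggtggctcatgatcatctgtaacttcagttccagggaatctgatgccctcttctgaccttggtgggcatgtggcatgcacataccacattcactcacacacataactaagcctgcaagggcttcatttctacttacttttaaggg
Psme1 (chr14:55578244-55578543, plus strand): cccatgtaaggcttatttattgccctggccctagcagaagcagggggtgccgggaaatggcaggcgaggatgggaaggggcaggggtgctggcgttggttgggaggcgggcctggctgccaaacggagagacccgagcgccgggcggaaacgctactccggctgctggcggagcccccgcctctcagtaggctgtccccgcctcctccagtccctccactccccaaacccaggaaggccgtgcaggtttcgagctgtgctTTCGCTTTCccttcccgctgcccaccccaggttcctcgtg
Psme2 (chr14:55591052-55591351, minus strand): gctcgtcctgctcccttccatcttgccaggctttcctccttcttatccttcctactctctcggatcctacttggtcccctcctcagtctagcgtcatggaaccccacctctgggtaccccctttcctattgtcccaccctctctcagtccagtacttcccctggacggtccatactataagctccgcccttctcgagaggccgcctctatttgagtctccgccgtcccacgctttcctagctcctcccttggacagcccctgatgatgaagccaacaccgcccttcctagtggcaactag
Psmb5 (chr14:54617946-54618245, minus strand): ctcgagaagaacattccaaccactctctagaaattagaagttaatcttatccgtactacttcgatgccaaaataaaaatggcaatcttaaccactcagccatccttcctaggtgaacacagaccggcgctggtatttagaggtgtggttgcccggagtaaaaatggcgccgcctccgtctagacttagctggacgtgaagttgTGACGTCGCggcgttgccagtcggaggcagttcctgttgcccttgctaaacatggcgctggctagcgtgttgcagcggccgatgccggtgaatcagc
Psmb6 (chr11:70525107-70525406, plus strand): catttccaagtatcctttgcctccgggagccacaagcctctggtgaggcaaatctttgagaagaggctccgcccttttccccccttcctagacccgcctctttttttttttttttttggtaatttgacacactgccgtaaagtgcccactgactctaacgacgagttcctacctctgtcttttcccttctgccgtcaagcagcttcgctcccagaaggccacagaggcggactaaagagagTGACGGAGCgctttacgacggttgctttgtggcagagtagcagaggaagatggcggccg

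Among the inducible genes, the gamma-activated site core matched only the Psmb8 promoter, where it began 97 bases before the start site, and the interferon element core matched only the Psme1 promoter. The Psmb9 promoter held a CCAAT box beginning 8 bases before the start, and those of Psmb10 and Psme2 held none of the 4 motifs. The antioxidant element core matched both printed constitutive promoters, 47 bases before the start in Psmb5 and 9 bases in Psmb6, and also those of Psmc6 and Psmd12. It was found in 0 of 5 inducible and 4 of 25 constitutive genes with an entry, against 14.0% of all 27025 genes in the table (12.4% of its 32851 promoters, some genes having several). The gamma-activated site core was found in 1 of 5 inducible and 1 of 25 constitutive genes (Psmd2), against 9.55% of all genes (8.30% of promoters). The interferon element core was found in 1 of 5 inducible genes and in 4 of 25 constitutive genes (Psmb3, Psmb4, Psmc2 and Psmd4), against 9.76% of all genes (8.56% of promoters). The CCAAT box was found in 1 of 5 and 10 of 25 genes, against 41.1% of all genes (37.4% of promoters). A match describes the letters of the window and was not tested as a binding site.

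In the spleens of CB-NP offspring the inducible and constitutive proteasome genes differed from the controls in opposite directions, by small amounts. All 5 inducible genes were above the control pool in both sexes, with a median log2 difference of 0.17 in males and 0.15 in females. Of 31 constitutive genes, 30 were below the control pool in males (median -0.17) and 30 in females (median -0.30), and 29 were below in both. Among all detected genes 54.8% were below 0 in males, 56.7% in females and 39.4% in both, and 27.8% were above 0 in both. The 12 other genes were all below the control pool in both sexes, with medians of -0.12 and -0.32. With the authors' scaling 9 of them were below in males and 10 in females. They include Psma8, of low signal, and Psme4, whose 2 probes disagreed in females. No gene of the 48 differed 2-fold in either sex, a size passed by 0.86% of all detected genes in males and 1.09% in females.

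**Figure D1:**
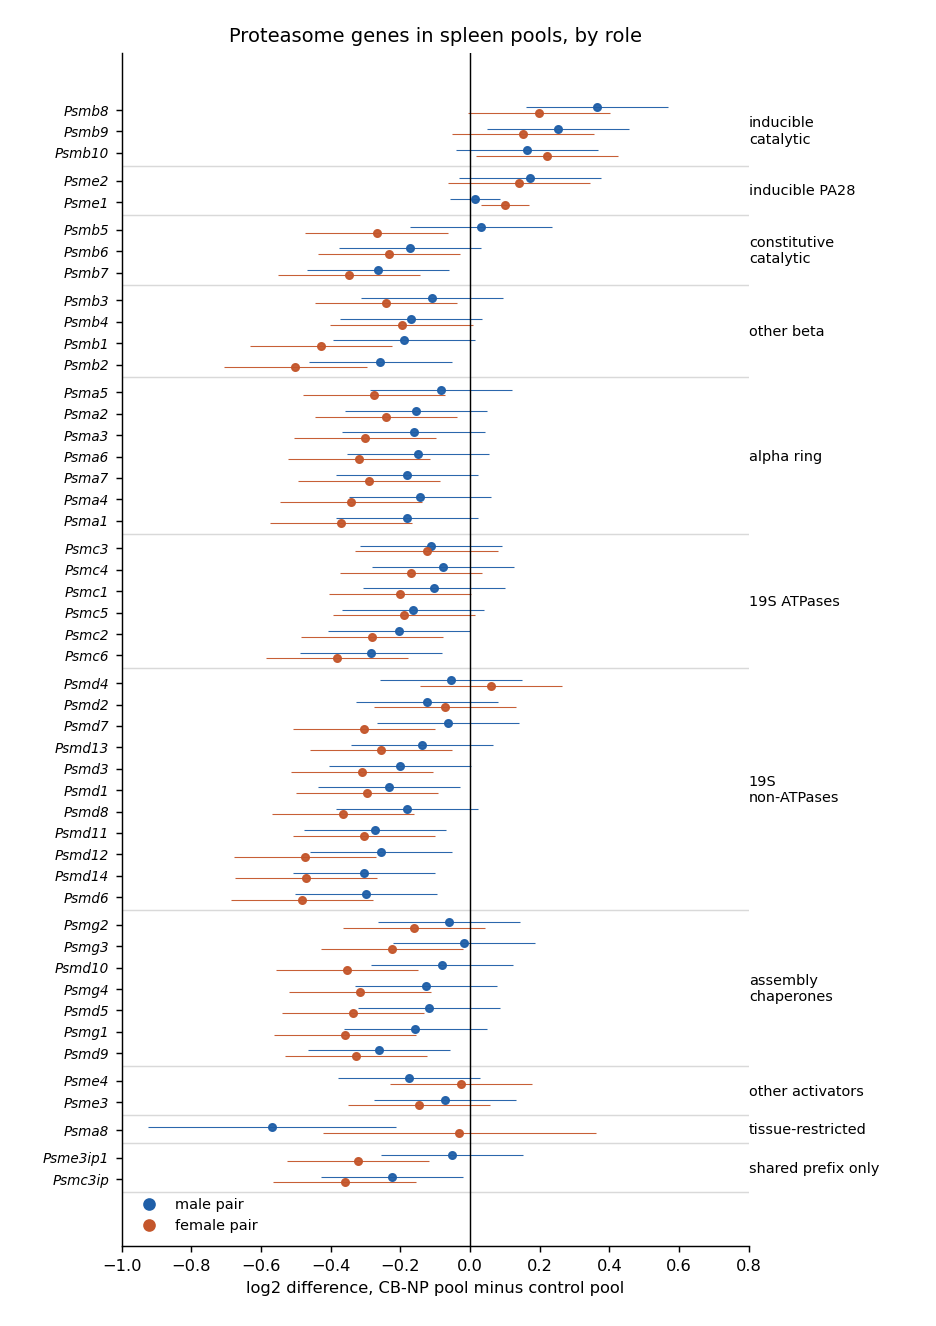
Log2 difference (CB-NP pool minus control pool, x axis) of the 48 detected proteasome genes grouped by role, with points for the male and the female pair of pools and bars of 1 scanner error, which does not include differences between animals. The 5 inducible genes lie to the right of 0 in both sexes, and 41 of the other 43 genes lie to the left of 0 in both.

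Psmb8, the inducible chymotrypsin-like subunit, had log2 levels of 3.08 in the male control pool and 3.45 in the male CB-NP pool, and of 3.25 and 3.44 in the corresponding female pools. Levels are relative to the 75th percentile of each array. Both CB-NP pools were above both control pools, and the CB-NP pools of the 2 sexes were nearly level. The difference was 0.36 in males (1.29-fold), the only one of the 48 genes at or above 0.3 (1.23-fold) in males, where 10.3% of all genes lay, and 0.20 in females (1.15-fold). The scanner error of a log2 difference was 0.20 for this probe, which was also the median over the 48 genes and is not particular to Psmb8. The male value exceeded it and the female value did not.

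Psmb9, which replaces the caspase-like subunit, had levels of 2.98 and 3.23 in the male control and CB-NP pools and of 3.17 and 3.33 in the female pools. The order of the pools was like that of Psmb8, with the male control pool lowest. Its differences were 0.25 in males and 0.15 in females, whereas the female control pool was above the male control pool by 0.20. The difference between unexposed pools of different sex was therefore of the same size as the difference with exposure.

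Psmb10, which replaces the trypsin-like subunit, had levels of 5.04 and 5.20 in the male control and CB-NP pools and of 4.97 and 5.19 in the female pools. Both CB-NP pools were above both control pools and were level with each other. The differences were 0.16 in males and 0.22 in females, against -0.07 between the control pools (female minus male).

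The genes of the PA28 activator had the smallest differences of the inducible group in females. Psme2 had levels of 5.76 and 5.93 in the male control and CB-NP pools and of 5.76 and 5.90 in the female pools. Its control pools were level, both CB-NP pools were higher, and the differences were 0.17 and 0.14. A dimmer probe of Psme2 gave 0.11 in males but -0.20 in females, so the 2 probes disagreed in females. Psme1, measured with several spots and a scanner error of 0.07, had levels of 4.69 and 4.70 in the male pools and of 4.70 and 4.80 in the female pools. Only the female CB-NP pool stood above the other 3, and the differences were 0.01 in males and 0.10 in females.

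Among the 5628 genes whose mean signal was at least 1000, a range that includes all inducible and constitutive members, 20.9% were above 0 in both sexes, and all 5 inducible genes were on this side. In females 0 of the 48 proteasome genes lay at or above 0.3, against 14.3% of all genes. With arrays centred on their medians, the median of all genes shifted by -0.11 in females, the female median of the inducible genes became 0.04 and Psme1 was at -0.01.

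**Figure D2:**
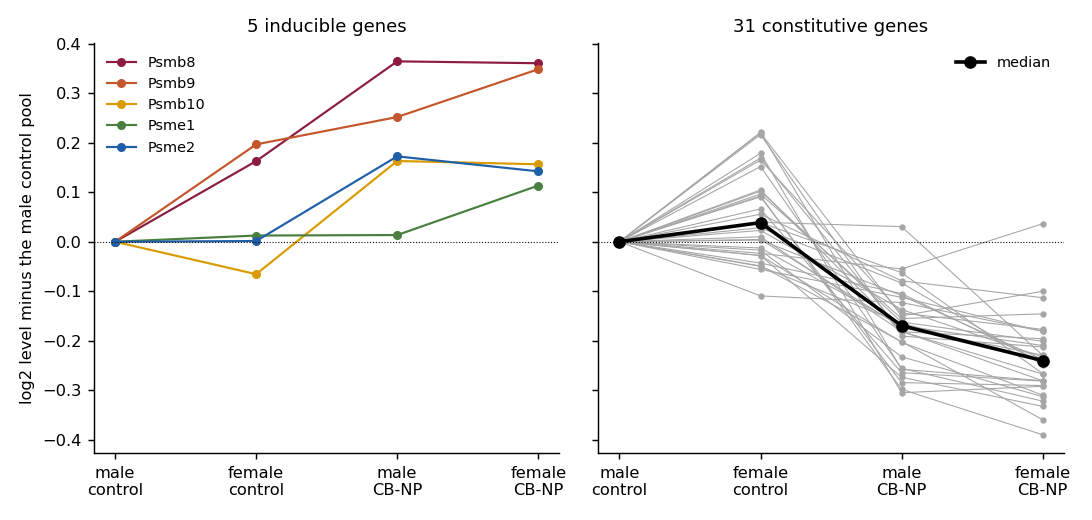
Log2 level of each gene minus its level in the male control pool (y axis) in the 4 pools (x axis), for the 5 inducible genes (left) and the 31 constitutive genes (right, median in black). Lines join the 4 pools of a gene and are no time course. The constitutive median was 0.04 above the male control pool in the female control pool and below it in both CB-NP pools.

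The constitutive catalytic subunits are the direct counterparts of Psmb8, Psmb9 and Psmb10. Psmb7, the trypsin-like subunit, had levels of 4.02 and 3.75 in the male control and CB-NP pools and of 4.08 and 3.73 in the female pools. Both CB-NP pools were below both control pools, with differences of -0.26 in males and -0.35 in females. Psmb6, the caspase-like subunit, had levels of 6.59 and 6.41 in the male pools and of 6.59 and 6.36 in the female pools. Its control pools were level and both CB-NP pools were lower, with differences of -0.17 and -0.23.

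Psmb5, the chymotrypsin-like subunit and the main target of proteasome inhibitors, differed between the sexes. Its levels were 6.94 and 6.97 in the male control and CB-NP pools and 6.97 and 6.71 in the female pools. Only the female CB-NP pool stood below the rest, with a difference of -0.27, against 0.03 in males. The dimmer probe of Psmb5 gave -0.20 in males and -0.28 in females, so the probes disagreed in males. The difference between the sexes was not tested.

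Each inducible subunit was set against the subunit it replaces by subtracting their log2 differences. Psmb8 minus Psmb5 was 0.33 in males and 0.47 in females. Psmb9 minus Psmb6 was 0.42 and 0.39, and Psmb10 minus Psmb7 was 0.43 and 0.57. All 6 values exceeded the propagated scanner error of 0.29, which was the same for each pair and covers neither animals nor pools. Exceeding a scanner error was common: 31.7% of all detected genes in males and 45.1% in females exceeded their own, in either direction. Between the control pools of the 2 sexes (female minus male) the same subtractions gave 0.12, 0.19 and -0.13. Between the CB-NP pools they gave 0.26, 0.15 and 0.01.

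Over the whole groups, the inducible median exceeded the constitutive median by 0.34 in males (1.27-fold) and by 0.45 in females (1.36-fold). The corresponding value was -0.03 between the female and male control pools and 0.06 between the CB-NP pools. In males 1 constitutive gene, Psmb5, reached the lowest inducible gene, and in females none did. Across the processing alternatives with the same 31 genes the gap lay between 0.32 and 0.37 in males and between 0.44 and 0.49 in females, although the 2 medians moved. For median centring and the authors' scaling this was nearly fixed in advance, since each applies 1 constant to an array.

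**Figure D3:**
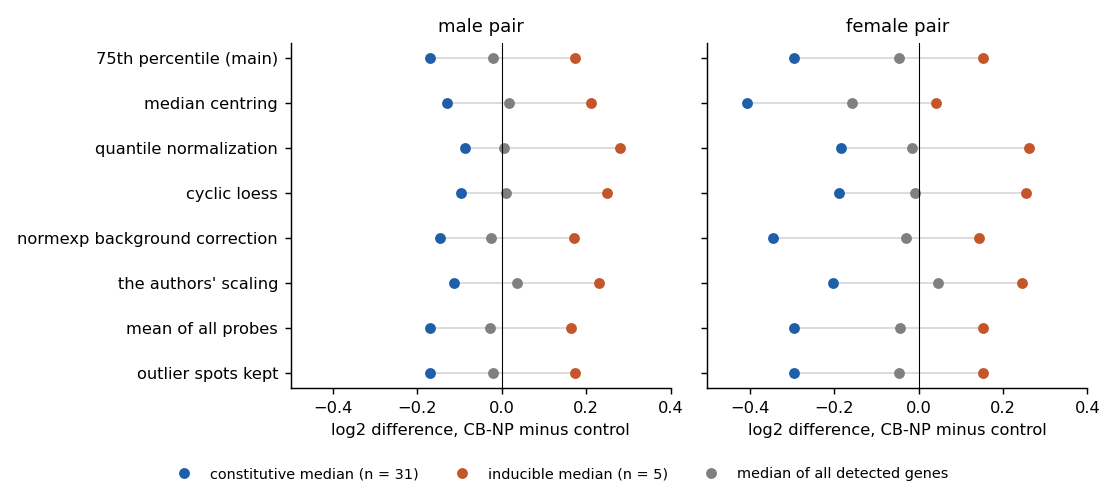
Median log2 difference (CB-NP minus control, x axis) of the 31 constitutive genes, the 5 inducible genes and all genes detected on all 4 arrays, for 8 ways of processing the arrays (y axis), in males (left) and females (right). The gap between inducible and constitutive medians stays near 0.34 in males and 0.45 in females, whereas the position of both against 0 moves with the scaling.

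The alpha ring, which gates the entry to the core, was lower as a whole: 7 of 7 genes were below the control pool in each sex, with medians of -0.16 in males and -0.30 in females. Psma1 had the lowest values, with levels of 5.21 and 5.03 in the male control and CB-NP pools and of 5.31 and 4.94 in the female pools, and differences of -0.18 and -0.37. Psma5 was the least different in males (-0.08, and -0.28 in females) and Psma2 in females (-0.24, and -0.16 in males). None of the 7 male differences and all 7 female differences exceeded the scanner error, against 31.7% and 45.1% of all detected genes, in either direction. In the control pools all 7 genes were higher in females, with a median difference of 0.10.

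The beta subunits without a protease site, Psmb1 to Psmb4, were below the control pool in 4 of 4 cases in each sex (medians -0.18 and -0.33). Psmb2 had levels of 1.72 and 1.46 in the male control and CB-NP pools and of 1.94 and 1.43 in the female pools. Its CB-NP pools were level while its control pools were not, and its female difference of -0.50 (1.42-fold lower) was the lowest of the 48 genes, against -0.26 in males. Psmb1 followed with -0.19 and -0.43. Psmb3 (-0.11 and -0.24) and Psmb4 (-0.17 and -0.20) differed least.

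In the regulatory particle 17 of 17 genes were below the control pool in males and 16 of 17 in females. The 8 lid genes, which include the deubiquitinase, had medians of -0.23 and -0.34. The 9 genes of the base, which include the ATPases, had medians of -0.12 and -0.19. The division into lid and base was added after seeing the data. The lid probes were dimmer (median signal 5177.5 against 13900), and dim constitutive probes lay further below the controls, as given below. The part of probe signal in this contrast was not tested. Psmd14, the deubiquitinase that strips ubiquitin from substrates, had levels of 2.47 and 2.16 in the male control and CB-NP pools and of 2.64 and 2.17 in the female pools. Both CB-NP pools lay below both control pools, and with differences of -0.30 and -0.47 (1.24-fold and 1.39-fold lower) it was the only gene of the 48 at or below -0.3 in both sexes. So were 354 of the 13936 genes detected on all 4 arrays, and 98 of the 5628 of signal at least 1000. The male Psmd14 difference was -0.27 with median centring, quantile normalization and cyclic loess, and -0.24 with the authors' scaling, short of that threshold.

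Psmd6, a scaffold subunit of the lid, had levels of 3.99 and 3.69 in the male control and CB-NP pools and of 4.08 and 3.60 in the female pools. Both CB-NP pools lay below both control pools, with differences of -0.30 in males, just short of the threshold, and -0.48 in females. Psmd12, another lid scaffold, had levels of 5.39 and 5.13 in the male pools and of 5.54 and 5.06 in the female pools. Its differences were -0.26 and -0.47 with this probe and -0.12 and -0.25 with a dimmer probe, lower with exposure on both. Psmd11 (-0.27 and -0.30) and Psmd7 (-0.06 and -0.30), also of the lid, were less far from the controls in at least 1 sex.

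The ubiquitin receptor Psmd4 departed from the rest of the cap. Its levels were 6.50 and 6.45 in the male control and CB-NP pools and 6.48 and 6.54 in the female pools. All 4 values were close, and the differences of -0.05 and 0.06 had opposite signs and lay within the scanner error. Their signs depended on the scaling. Psmd2, the large scaffold subunit of the base, was also near the controls (-0.12 and -0.07).

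Among the 6 ATPases, all were below the control pool in both sexes, with medians of -0.14 and -0.20. Psmc6 was the lowest, with levels of 2.91 and 2.63 in the male control and CB-NP pools and of 3.002 and 2.62 in the female pools, and differences of -0.28 and -0.38. Psmc3 differed least in females (-0.11 and -0.12), and a dimmer Psmc3 probe gave -0.17 and -0.26. Psmc4 differed by -0.08 and -0.17, the least in males, and Psmc2 by -0.20 and -0.28.

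The 7 assembly chaperones, which guide the building of the rings and the base and are not part of the finished particle, were lower in 7 of 7 cases in each sex, with medians of -0.12 and -0.33. Psmd9, a chaperone of the base, had levels of 3.28 and 3.02 in the male control and CB-NP pools and of 3.41 and 3.08 in the female pools. Both CB-NP pools were below both control pools, with differences of -0.26 and -0.33, and a dimmer probe gave -0.12 and -0.14. Psmg1 (-0.16 and -0.36), which pairs with Psmg2 (-0.06 and -0.16) in alpha ring assembly, and the base chaperones Psmd5 (-0.12 and -0.34) and Psmd10 (-0.08 and -0.35) were lower mainly in females. Psmg3 was at -0.02 in males and -0.22 in females. With the authors' scaling the male differences of Psmg3 and Psmg2 were 0.04 and 0.001.

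Psme3, a nuclear relative of PA28, had levels of 1.59 and 1.52 in the male control and CB-NP pools and of 1.64 and 1.49 in the female pools, differences of -0.07 and -0.15 that lie within the scanner error. Psme4, a large activator known from chromatin and testis, had differences of -0.18 and -0.03, but its control pools already differed by -0.30 (female minus male). Its dimmer probe gave -0.29 and 0.21, so no direction is given for it. The testis subunit Psma8 had a mean signal of only 15.5, and its differences of -0.57 and -0.03 became -0.06 in males with another background correction. The prefix-sharing genes Psmc3ip (-0.22 and -0.36), a meiotic recombination factor, and Psme3ip1 (-0.05 and -0.32), a partner of Psme3, were also below the controls.

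Of all 48 genes, 42 were below the control pool in each sex, 41 in both, 5 above in both and 2 (Psmb5 and Psmd4) on opposite sides. Among genes of signal at least 1000, 53.4% were below 0 in both sexes, a larger share than among all detected genes. The median of all detected genes was -0.02 in males and -0.05 in females, and that of genes of signal at least 1000 was -0.05 and -0.10. At or below -0.3 were 2 of the 48 in males (Psmd14 and Psma8), against 8.34% of all genes, and 22 in females, against 14.3%. The female count ran from 5 with the authors' scaling to 35 with median centring. The female difference was the lower in 42 of the 48 genes, and in 57.5% of all detected genes and 64.5% of those of signal at least 1000. Of the 11 dimmer probes of 11 members, 10 had the sign of the first probe in males and 9 in females.

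**Figure D4:**
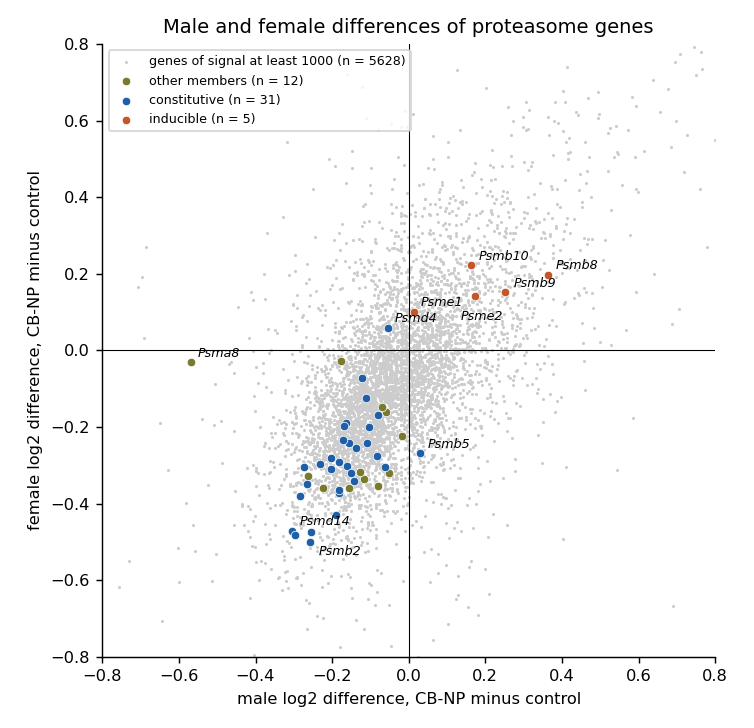
Male (x axis) and female (y axis) log2 difference, CB-NP minus control, for the 5628 genes of signal at least 1000 (grey, those within the axes) and the proteasome genes by class. The inducible genes lie in the upper right quadrant and 29 of 31 constitutive genes in the lower left quadrant, where 53.4% of the grey genes lie.

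The control pools were compared with each other, female against male and without a replicate, which gives differences between unexposed pools of different sex. How far pools of the same sex and treatment differ was not measured. Both control pools also had the higher summed levels of pancreas genes, so this comparison gives no scale for the differences between CB-NP and control pools. Female minus male, 34 of the 48 genes were above 0, with a median of 0.04, and 2 (Psma8 and Psme4) lay at or beyond 0.3 in either direction, against 17.4% of all genes. The constitutive genes had a median of 0.04 and a range from -0.11 (Psmd2) to 0.22 (Psmb2) there. Between the CB-NP pools their median was -0.06, and 27 of 31 were lower in females, as were 57.4% of all detected genes and 64.5% of genes of signal at least 1000.

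Across the 31 constitutive genes, the difference followed the signal of the probe: dim probes were further below the controls than bright ones. Pearson's r between the log2 signal and the difference was 0.55 in males and 0.59 in females, and Spearman's rho was 0.48 and 0.60. The points are genes of the same 4 arrays and are not independent, so no p is given. Quantile normalization and cyclic loess, which align arrays at every signal, brought the constitutive medians to -0.09 and -0.10 in males and to -0.18 and -0.19 in females.

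A limma model with treatment and sex, fitted to 14503 genes with 1 residual degree of freedom, was the test applied to the 4 arrays. It called 0 of the 48 proteasome genes at a Benjamini-Hochberg adjusted p under 0.05, against 12 genes (0.0827%) in all. At an unadjusted p under 0.05 it called 9 members, all lower, and 13.8% of all genes. That split depended on the scaling, with 4 higher and 5 lower after quantile normalization, 4 and 4 after cyclic loess, 3 and 3 with the authors' scaling, and 0 of either with median centring. The lowest limma adjusted p among members was 0.338, for Psmd14 (effect -0.39, SE 0.10, lower in 2 of 2 pairs). For Psmb8 the effect was 0.28 (SE 0.10, higher in 2 of 2 pairs, adjusted p 0.368). With normexp background correction or with an intensity trend in the variance, 2 members were called, both lower, the lower adjusted p being 0.0387 and 0.0422 for Psmd6.

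Partners of the proteasome outside the symbol rule were mostly lower too: of 14 detected, 13 were below the control pool in males and 12 in females (medians -0.12 and -0.17). Among all detected genes 54.8% were below 0 in males and 56.7% in females. Psmf1, a proteasome-binding regulator, had levels of 2.97 and 2.68 in the male control and CB-NP pools and of 3.19 and 2.60 in the female pools. Its differences of -0.29 and -0.59 were larger in size than those of any constitutive subunit in females. Ecpas, an adaptor that tethers proteasomes to other cell structures, was level in males (-0.03) and higher in females (0.72), where its control pool was low.

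The interferon-gamma axis, which drives the inducible subunits, had 13 of 14 genes above the control pool in males and 10 of 14 in females, with medians of 0.24 and 0.13. Among the 13936 genes detected on all 4 arrays, 6322 were above 0 in males and 5996 in females. Irf1, a transcription factor of immunoproteasome genes, had levels of 2.47 and 3.23 in the male control and CB-NP pools and of 3.002 and 3.42 in the female pools. The male control pool was the lowest, as for Psmb8 and Psmb9. Its differences were 0.76 and 0.42, and its control pools differed by 0.53 (female minus male). Averaged over all its probes, the female difference was 0.73. Nlrc5, the activator of MHC class I genes, was higher by 0.75 and 0.74, from levels of -1.26 and -0.70 in the male and female control pools. The neighbours of Psmb8 and Psmb9 were mixed, Tap2 with differences of 0.24 and 0.40 and Tap1 with 0.37 and -0.09, the latter 0.01 with the authors' scaling. Summed levels of the 14 genes were 127 and 147 in the male control and CB-NP pools and 137 and 150 in the female pools.

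Markers of cell types also differed between the pools, not all in the same direction. Of 8 B cell genes, 8 were above the control pool in males and 7 in females (medians 0.70 and 0.75), and their summed levels were 57.6 and 97.1 in the male control and CB-NP pools and 55.0 and 90.5 in the female pools. Of the 13936 genes detected on all 4 arrays, 6322 were above 0 in males and 5996 in females. Fcer2a, a receptor of mature B cells, was higher by 0.95 and 0.92, and Pax5, the B cell lineage factor, by 0.68 and 1.00 (0.40 and 0.66 averaged over all its probes). All 8 B cell genes were detected in all pools, and the inducible subunits differed by less than the B cell medians. The 8 T cell genes had medians of 0.06 and 0.53, with summed levels of 25.1 and 25.5 in males and 25.2 and 33.8 in females. Of 7 detected macrophage genes, 7 were above 0 in males and 3 in females.

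Genes of dividing cells were mostly below the control pool, as were the constitutive subunits. Of 7 detected, 6 were below the control pool in males and 7 in females (medians -0.22 and -0.27), and Aurkb did not reach the level of detection in any pool. Among all genes of signal at least 1000, 63.9% were below 0 in males and 68.7% in females. Summed levels of the 8 genes, Aurkb included, were 455 and 395 in the male control and CB-NP pools and 470 and 408 in the female pools. Mcm5, a replication helicase subunit, differed by -0.28 and -0.44, and Top2a, a topoisomerase of dividing cells, by -0.16 and -0.46. The 8 erythroid precursor genes had medians of -0.10 and -0.14, with 7 and 6 below the controls. Their summed levels, in which the bright Slc4a1 and Alas2 weigh most, were 910 and 816 in males and 857 and 853 in females. In RNA of whole spleen, fewer cells of a type and less RNA per cell cannot be told apart, and the part of these cell types in the proteasome values was not tested.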

How the data were processed

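Spleen RNA pools were measured on 4 arrays, 1 per sex and treatment. Per the file headers, the authors scanned Agilent 1-colour arrays (design 028005, probes drawn on mm9) with Agilent Feature Extraction 10.10.1.1, and the deposited processed signal is a background-subtracted intensity, not scaled between arrays. Per the file headers, other deposited columns hold marks (0 or 1) of detection above background, saturation and outliers. The authors' deposited value table, also an intensity, equals that signal multiplied by a constant for each array (3.10, 3.18, 2.64 and 3.49 in the order male control, male CB-NP, female control, female CB-NP; column medians 75.2, 76.1, 68.9 and 79.4), and the target of that scaling is not given in the sources used here.

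Here each array's 75th percentile over spots other than controls was subtracted from the log2 processed signal. Spots of a probe were averaged without outlier spots. By RefSeq accession 26762 of 55681 probes were matched to 20284 genes (name table of assembly GRCm38.p6), and 28919 probes were left unnamed. Each gene was represented by its probe of highest mean signal. A gene entered a difference when both arrays detected it well above background. With 1 array per group the number of arrays limits the precision, and differences were counted at log2 0.3 and 1 without a test. The limma model (treatment and sex, genes detected on at least 2 arrays, Benjamini-Hochberg adjustment) was tested on simulated data.

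The members and lists were chosen with earlier results of these data known. The lists cover proteasome partners, the interferon-gamma axis, B cells, T cells, macrophages, erythroid precursors, dividing cells, eosinophils, exocrine pancreas and spleen stroma. The division of the cap into lid and base, and the background of genes with a signal of at least 1000, were added after seeing the data. Named were the inducible genes and their counterparts, the highest and lowest member of each role, members at or beyond 0.3 in the same direction in both sexes, of opposite direction, or at or beyond 0.5 in 1 sex, and from other lists the 2 genes that differed most and those at or beyond 0.5 in both sexes. Not every list gene meeting this rule is named in the text, and some members and Tap1 and Tap2 were named beyond it after their values were seen. The design assumed no pixel summary, and normexp (offset 50) used the median-pixel intensity and its local background. Alternatives were median centring, quantile normalization, cyclic loess, normexp, the authors' scaling, the mean of all probes, outlier spots kept, other detection filters, other definitions of the constitutive genes, an intensity trend and no sex term. The model was run in limma 3.58.1 (R 4.3.3), all else in Python 3.11.15 (numpy 2.4.6, pandas 2.3.3, matplotlib 3.10.9, scipy 1.17.1).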

Additional observations from a re-analysis of the deposited data

Results flagged for a closer look

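In 2 members the male and female differences had opposite signs. Psmb5 was at 0.03 in males and -0.27 in females, so that its female difference minus its male difference was -0.30. Psmd4 was at -0.05 in males and 0.06 in females, and the female difference minus the male difference was 0.11. The signs of Psmd4 depended on the scaling. Both were above 0 with quantile normalization (0.04 and 0.16), cyclic loess (0.03 and 0.18) and the authors' scaling (0.007 and 0.155). Both were below 0 with median centring (-0.02 and -0.05). With 1 pool per group the difference between the sexes was not tested, and for Psmb5 the dimmer probe was lower in both sexes.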

How the results depend on the processing

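With 1 array per group no replicate could be left out. The groups share no replicate numbers, and the model with sex as a term compares pools within a sex. Without that term limma called 9 genes and 0 members (19 members at an unadjusted p under 0.05). The gap between the inducible and constitutive medians moved by less than 0.1 under every alternative, and no median changed sign. Median centring and the authors' scaling apply 1 constant to each array, so they could hardly move this gap. Nor could the detection filters, since all inducible and constitutive genes were detected on all 4 arrays. The medians themselves moved with the scaling. In females the inducible median was 0.0403 with median centring, 0.26 with quantile normalization and 0.25 with cyclic loess, and the constitutive median was -0.41, -0.18 and -0.19. In males the inducible median was 0.28 with quantile normalization. Members at or below -0.3 numbered 1 in males with median centring, cyclic loess, quantile normalization and the authors' scaling, and in females 35, 6, 7 and 5 in the same order. Members at or above 0.3 numbered 2 in males with the authors' scaling, and 1 in females with the authors' scaling, quantile normalization and cyclic loess. Constitutive genes below 0 numbered 27 to 31, and inducible genes above 0 numbered 5 except 4 in females with median centring (Psme1) and with the mean of all probes (Psme2 at -0.03). Of the 12 other genes, 9 to 12 were below 0 in males and 10 to 12 in females, fewest with the authors' scaling.

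The number of genes called by limma was 12, and 344 with median centring, 3 with quantile normalization, 3 with cyclic loess, 612 with normexp, 2 with the authors' scaling and 380 with an intensity trend. It was 0 without a detection filter (1363 at an unadjusted p under 0.05) and 0 for genes detected on all 4 arrays (2113 unadjusted). Members called were 2 with normexp and 2 with the trend, and 0 otherwise. The cause of these changes was not tested. Among genes given by name, 14 of 714 recomputed values moved by more than their scanner error, among them Psme1 in females (from -0.01 to 0.21), Psma8 in males (-0.06 with normexp), Nlrc5 in males (0.48 and 0.51), Irf1 in females (0.73), Pax5 (0.40 in males and 0.66 to 0.70 in females) and Tap1. A scanner error covers neither animals nor pools.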
